A study of Mus musculus with 22 samples.

Results

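RNA-Seq read counts of 10 genes of synaptic vesicle endocytosis were followed in the hippocampus (HIP) and entorhinal cortex (EC) of Ts66Yah mice and littermates without the extra chromosome (wild type, wt). The 10 genes were chosen by name out of the 55385 genes counted, and all 10 were found by their Ensembl identifier and passed the filter on low counts in every comparison. Synj1 and Itsn1 lie on the triplicated segment, and the other 8 (Itsn2, Dnm1, Dnm3, Sh3gl2, Amph, Bin1, Snap91 and Picalm) lie elsewhere. The Ts66Yah line, which models Down syndrome, has an additional small chromosome that segregates freely and holds mouse chromosome 16 (Mmu16) from Mir155 to the distal end, so that this segment is present in 3 copies instead of 2. It was derived from Ts65Dn by CRISPR/Cas9 removal of the centromeric part of Mmu17, which the minichromosome of Ts65Dn also carries. The 4 groups were wt HIP and wt EC from the same 5 mice, and Ts66Yah HIP and Ts66Yah EC from the same 6 mice, giving 22 libraries. All 11 mice were males of 5 to 6 months on the F1 B6C3B background, and the Ts66Yah line descends from 1 founder male. Each tissue piece was bulk RNA, so fewer cells of a type and less RNA per cell cannot be told apart in any value given here.

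A synaptic vesicle that has fused with the plasma membrane is retrieved by endocytosis. Adaptors such as AP180 (Snap91) and CALM (Picalm) gather clathrin and vesicle proteins on membrane rich in a phosphoinositide, PI(4,5)P2. Intersectins (Itsn1, Itsn2) are scaffolds that hold the endocytic machinery together. Amphiphysins (Amph, Bin1) and endophilin A1 (Sh3gl2) sense or bend the neck of the bud, dynamins (Dnm1, Dnm3) cut it with GTP, and synaptojanin 1 (Synj1) removes phosphates from PI(4,5)P2 so that the coat can come off. SYNJ1 and ITSN1 are on human chromosome 21, which is why this step has long been of interest in Down syndrome.

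Synj1 (ENSMUSG00000022973) spans chromosome 16, 90936092 to 91011308 on the minus strand of GRCm38, and Itsn1 (ENSMUSG00000022957) spans chromosome 16, 91729281 to 91920597 on the plus strand. The 2 genes are 717972 bases apart and face away from each other. Outside the segment, Itsn2 spans chromosome 12 from 4592638 to 4713962, Dnm1 chromosome 2 from 32308471 to 32353338, and Dnm3 chromosome 1 from 161982453 to 162478034. Sh3gl2 spans chromosome 4 from 85205126 to 85639195, Amph chromosome 13 from 18948205 to 19150921, Snap91 chromosome 9 from 86765923 to 86880654, and Picalm chromosome 7 from 90130213 to 90213465. The 160 bases directly upstream of each annotated gene start are printed below because these are the 2 members whose level differed between the genotypes. They are taken from the RefSeq promoter table of GRCm38.p6 (chr16:91011309-91011468, minus strand, and chr16:91729121-91729280, plus strand), 5′ to 3′ along the gene. Capitals mark GC boxes (GGGCGG on either strand) and CCAAT boxes (CCAAT on either strand), which do not overlap each other here.

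Synj1 upstream: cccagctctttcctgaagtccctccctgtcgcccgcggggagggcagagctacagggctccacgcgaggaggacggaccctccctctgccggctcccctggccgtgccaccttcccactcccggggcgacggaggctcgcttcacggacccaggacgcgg
Itsn1 upstream: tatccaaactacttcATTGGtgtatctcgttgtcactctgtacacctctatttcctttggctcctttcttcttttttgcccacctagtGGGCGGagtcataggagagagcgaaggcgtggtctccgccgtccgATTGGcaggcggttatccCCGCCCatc

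The Synj1 stretch had 72.5% G and C and 15 CpG dinucleotides, and the Itsn1 stretch had 52.5% and 9. Itsn1 held 2 GC boxes and 2 CCAAT boxes in this window, and Synj1 held 0 of either. Among 32851 RefSeq promoters, the same window as for Itsn1 held a GC box in 18.1% and a CCAAT box in 21.5%, and the window as for Synj1 held them in 29.3% and 25.6%. The Itsn1 window lies in the 305 bases between Itsn1 and Cryzl1, an oxidoreductase-like gene that starts on the opposite strand.

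Library totals ran from 25.9 M to 50.1 M counts with a median of 34.7 M. The lowest count of any member in any library was 1724, in Itsn2, where counting error alone gives a coefficient of variation of 2.41%, and the highest was 65129, in Dnm1. Values below are CPM, each gene's counts relative to the library total after scaling by TMM factors. The 5 hippocampal markers were all called lower in the EC of both genotypes and summed to 677.5 to 861.9 CPM in HIP and 68.5 to 108.0 CPM in EC. The 5 cortical markers summed to 137.1 to 190.1 CPM in HIP and 326.6 to 585.0 CPM in EC, a sum led by Lamp5. Of these 5, 3 were called higher in the EC of both genotypes, while in wt mice 1 was called lower and Fezf2 had means of 25.4 CPM in HIP and 20.3 CPM in EC. Of 45 markers of brain cell types and regions, 0 passed the threshold between genotypes in either region (edgeR, adjusted p under 0.05, with 44 tested in the EC). At an unadjusted p under 0.05 in edgeR there were 8 and 3, beside 2188 of 18452 genes in HIP and 1103 of 17658 in EC. The 5 choroid plexus markers summed to 112.9 to 3313 CPM over the HIP libraries and 10.4 to 44.0 CPM over the EC libraries. Between regions 38 of the 45 markers passed the threshold in wt mice. In the EC the libraries labelled wt replicate 5 and Ts66Yah replicate 5 stood apart from their groups. Both held the lowest Synj1, Itsn1, Itsn2, Sh3gl2, Snap91 and Picalm and the highest Bin1 of their group. Their 5 neuronal markers summed to 2978 and 3091 CPM, below the other libraries of their groups, and their 4 endothelial markers to 162.7 and 173.4 CPM, above them. The neuronal sum was led by Map2, with means of 1649 CPM in wt EC and 1738 CPM in Ts66Yah EC. Its other markers were not examined 1 by 1 in these libraries. Other marker sums differed between these libraries. GABAergic markers were above the group in wt replicate 5 (946.5 CPM, others at most 925.2). They were below it in Ts66Yah replicate 5 (904.8 CPM, others at least 916.1). Only Ts66Yah replicate 5 lay outside its group in oligodendrocyte (2915 CPM), cortical (585.0 CPM) and hippocampal (68.5 CPM) markers, and only wt replicate 5 in choroid plexus markers (10.4 CPM). The EC calls for Synj1 and Itsn1 are therefore also given without both replicate 5 libraries.

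Synj1, the presynaptic phosphoinositide phosphatase, was higher in every Ts66Yah library than in any wt library of the same region. In the HIP the 5 wt mice had 560.3, 540.2, 501.5, 581.0 and 554.1 CPM, and the 6 Ts66Yah mice ran from 804.1 through a median of 898.7 to 954.7 CPM. The groups did not overlap. The means were 547.4 ± 29.6 (SD, n = 5) and 881.4 ± 58.5 CPM (SD, n = 6), a fold change of 1.61 with a 95% interval of 1.48 to 1.75 (edgeR quasi-likelihood test, adjusted p = 1.46e-05 over 18452 genes). Among EC libraries the wt mice had 564.8, 582.4, 585.9, 641.8 and 465.5 CPM, and the Ts66Yah mice ran from 736.7 through 942.6 to 998.5 CPM. The lowest value of each EC group was replicate 5. The EC means were 568.1 ± 64.2 (SD, n = 5) and 924.2 ± 95.7 CPM (SD, n = 6), 1.63-fold apart with an interval of 1.42 to 1.87 (edgeR, adjusted p = 0.00243).

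Itsn1, the scaffold that binds dynamin, synaptojanin and the clathrin adaptors, also rose in both regions. In the HIP the wt mice had 179.9, 163.4, 158.8, 155.9 and 165.0 CPM, and the Ts66Yah mice ran from 220.3 through 228.2 to 244.1 CPM. In the EC the wt mice had 164.7, 138.4, 137.7, 147.1 and 123.4 CPM, and the Ts66Yah mice ran from 187.3 through 204.7 to 224.1 CPM. As for Synj1, the genotypes did not overlap in either region. The share of all tested genes without such overlap was not counted. The fold change in the HIP was 1.40, or 0.49 on the log2 scale with an interval of 0.39 to 0.59 (edgeR, adjusted p = 5.35e-05). The EC fold change was 1.45, with an interval of 1.30 to 1.63 (edgeR, adjusted p = 0.00425).

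In each region 2 of the 10 members passed the threshold upward and 0 passed it downward (edgeR, 3 of 10 at an unadjusted p under 0.05). At the same unadjusted p in edgeR stood 2188 of all 18452 tested genes in HIP and 1103 of 17658 in EC. Of all tested genes, 0.439% were called higher and 0.152% lower among HIP libraries, and 0.272% and 0.0113% among EC libraries. Among the genes that share their copy number, 57.4% of the 101 tested genes of the segment were called higher in HIP and 48.4% of 93 in EC. The median log2 fold change over the segment was 0.59 in HIP and 0.57 in EC. Synj1 ranked 23rd of 101 in HIP and 16th of 93 in EC by fold change, and Itsn1 ranked 76th and 55th. Without both replicate 5 libraries of the EC, an alternative chosen after seeing the data, the EC log2 fold change was 0.70 for Synj1 and 0.52 for Itsn1 (edgeR, adjusted p = 5.46e-04 and 0.00453).

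**Figure D1:**
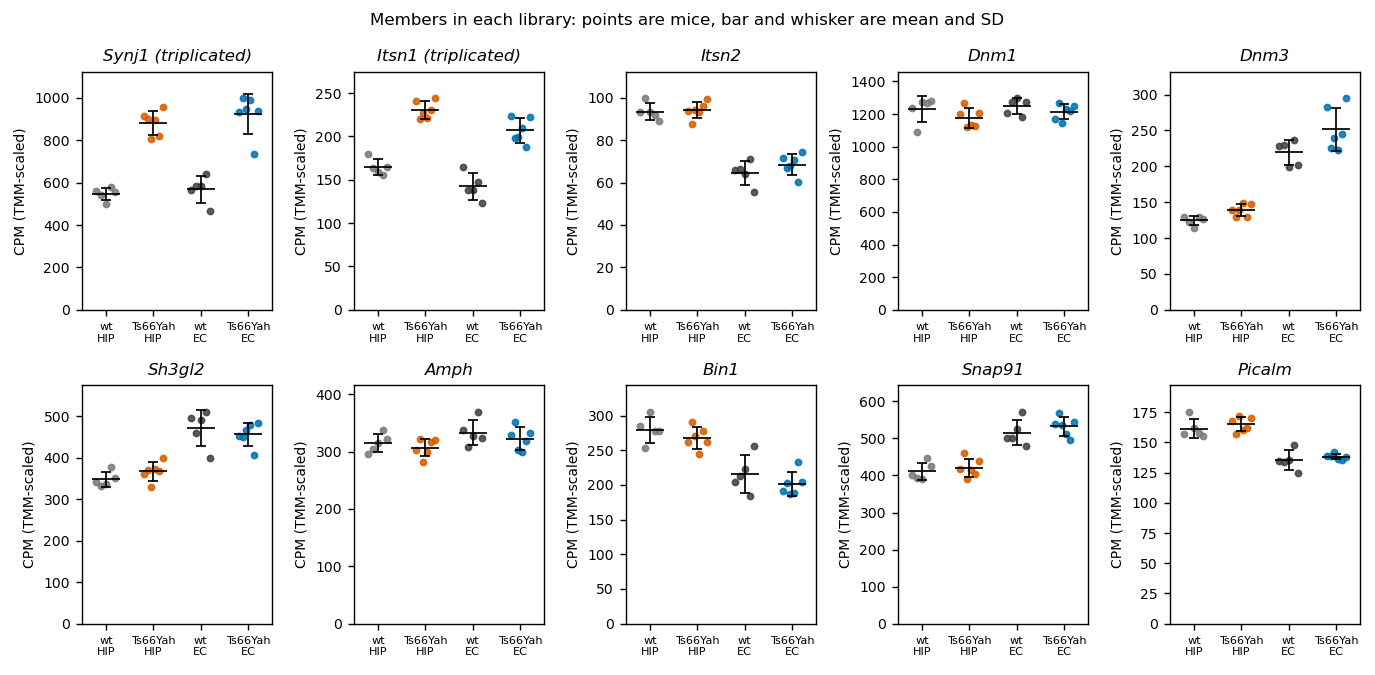
TMM-scaled CPM (vertical axes, from 0) of the 10 members in wt HIP, Ts66Yah HIP, wt EC and Ts66Yah EC, with 1 point per mouse and the group mean with its SD as bar and whisker. For Synj1 and Itsn1 the wt and Ts66Yah points of a region are separate (Synj1 in the HIP: at most 581.0 against at least 804.1 CPM), whereas the genotypes overlap for the other 8 genes.

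With 3 copies against 2, a level proportional to copy number would give a 1.5-fold difference. The departure from it was tested directly. Synj1 lay above it by 1.07-fold in the HIP (interval 0.989 to 1.17) and 1.08-fold in the EC (0.946 to 1.24), and Itsn1 below it at 0.933-fold (0.872 to 0.9995) and 0.969-fold (0.866 to 1.08). None of these 4 departures passed the threshold (edgeR, adjusted p over the segment genes 0.328 and 0.716 for Synj1, 0.233 and 0.88 for Itsn1). Of the 4, 1 had an unadjusted p under 0.05, that of Itsn1 in the HIP. Departures passed the threshold for 5.94% of the tested segment genes in HIP and 1.08% in EC. A p that misses the threshold does not show a level of exactly 1.5-fold, and the interval of Synj1 in the EC reached from 1.42 to 1.87.

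The nearest neighbours of the 2 genes on the segment were called in part. Cryzl1, next to Itsn1, was 1.47-fold higher in HIP and 1.53-fold higher in EC (edgeR, adjusted p = 1.22e-05 and 3.09e-04). Donson, a replication fork protein gene, stood at 1.55-fold and 1.54-fold and was called in both regions. On the other side of Itsn1, Atp5o, a subunit of mitochondrial ATP synthase, rose 1.64-fold and 1.59-fold, and Mrps6, a mitochondrial ribosomal protein gene, was called in the HIP at 1.43-fold and had a fold of 1.42 in the EC (edgeR, adjusted p = 0.0207 and 0.1). Beside Synj1, Paxbp1 was called in the HIP at 1.57-fold and not in the EC at 1.45-fold, while Cfap298, Eva1c and 4932438H23Rik, with wt means of 0.789 to 7.04 CPM, were not called in either region. Cfap298 had a fold of 1.02 in HIP and 1.59 in EC.

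Itsn2, the paralog of Itsn1 with wider tissue expression, had 93.2, 99.8, 93.1, 91.7 and 89.0 CPM in the wt HIP and 87.8 to 99.5 CPM in the Ts66Yah HIP. Its fold between genotypes was 1.01 in the HIP (interval 0.946 to 1.07) and 1.06 in the EC (0.951 to 1.18), and neither was called (edgeR, adjusted p = 0.948 and 0.956). Up to 12.4% of the Itsn2 exon sequence in read-length pieces also lies in genes of the opposite strand, mainly Gm48678, so that its counts would be mixed if strand was ignored.

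Among the genes that cut the neck, Dnm1, the dynamin of nerve terminals, was the member of highest CPM per kilobase and showed folds of 0.956 in the HIP (interval 0.882 to 1.04) and 0.973 in the EC (0.902 to 1.05). Dnm3, a neuronal dynamin that is found on the postsynaptic side as well, had the largest genotype fold among the 8 genes outside the segment. In the HIP the wt mice had 129.6, 121.8, 114.7, 130.0 and 127.2 CPM, and the Ts66Yah mice ran from 128.9 through 139.0 to 149.1 CPM. Among EC libraries the wt mice had 228.5, 229.7, 199.5, 237.0 and 201.6 CPM, and the Ts66Yah mice ran from 222.4 through 242.1 to 295.0 CPM. The groups overlapped in both regions. The Dnm3 fold was 1.12 in the HIP (interval 1.03 to 1.20) and 1.15 in the EC (1.01 to 1.30), and the difference passed no adjusted threshold (edgeR, unadjusted p = 0.00856 and 0.0329, adjusted p = 0.241 and 0.738).

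The curvature proteins did not pass the threshold. Sh3gl2, the neuronal endophilin that recruits synaptojanin, had a fold of 1.05 in the HIP (interval 0.978 to 1.14) and 0.967 in the EC (0.871 to 1.07). Amph, amphiphysin 1, had folds of 0.975 (0.909 to 1.05) and 0.967 (0.883 to 1.06). Bin1, amphiphysin 2, which is also made by oligodendrocytes and muscle, had folds of 0.958 (0.885 to 1.04) and 0.93 (0.822 to 1.05). The adjusted p of these 3 genes in edgeR was at least 0.594 in both regions.

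The clathrin assembly proteins did not pass the threshold either. Snap91, the neuronal AP180, had a fold of 1.02 in the HIP (interval 0.947 to 1.10) and 1.03 in the EC (0.946 to 1.13). Picalm, its paralog of most tissues, had a fold of 1.02 in both regions (0.958 to 1.09 and 0.944 to 1.10). Over the 8 genes outside the segment the median log2 fold change was 0.02 in HIP and -0.01 in EC, beside 0.00 in both regions over all tested genes. The upper bounds of these 8 intervals stayed under 1.5-fold in both regions.

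**Figure D2:**
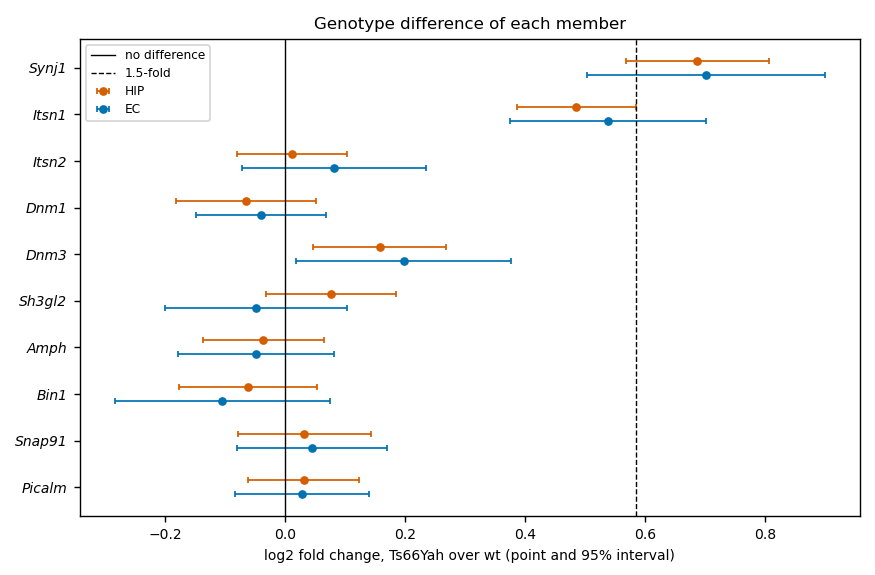
Log2 fold change of Ts66Yah over wt (horizontal axis) with its 95% interval for each member in the HIP (orange) and EC (blue), with a solid line at no difference and a dashed line at 1.5-fold. Synj1 (0.69 and 0.70) and Itsn1 (0.49 and 0.54) sit near the dashed line and the other 8 genes between -0.10 and 0.20.

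Because both genes act with partners that were not triplicated, the ratio of 2 genes within the same library was compared between genotypes, a measure that no scaling between libraries can move. For 9 pairs, both regions were tested by two-sided exact permutation of the genotype labels among the 11 mice, with the 18 p-values adjusted by Benjamini-Hochberg. The smallest p that this test can give is 0.00216. All 10 ratios of a triplicated gene to a partner outside the segment differed, 1 of 2 ratios within the triplicated pair, and 1 of 6 ratios between genes outside the segment. The 10 ratios reuse Synj1 and Itsn1, which already differed between genotypes, so their calls largely restate those differences. They are not independent tests, and ratios of other segment genes were not examined.

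Synj1 against endophilin (Synj1/Sh3gl2) was 1.57 in wt HIP and 2.40 in Ts66Yah HIP as a geometric mean, a 1.53-fold difference (exact permutation p = 0.00216, adjusted p = 0.00433). In the EC it went from 1.20 to 2.02, a 1.68-fold difference with the same p. Synj1/Dnm1 was 1.68-fold higher in HIP and 1.67-fold higher in EC, and Itsn1/Dnm1 was higher by 0.55 and 0.58 on the log2 scale, all without overlap between genotypes. Itsn1/Itsn2 rose from 1.76 to 2.45 in HIP and from 2.20 to 3.02 in EC, with 5 wt values below all 6 Ts66Yah values each time.

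Synj2, the more widely expressed of the 2 synaptojanins, lies in the centromeric part of Mmu17 that was removed from the minichromosome. Its own HIP level was called higher in Ts66Yah mice, as given below. Synj1/Synj2 compares the 2 genes. It differed by 1.36-fold in the HIP (exact permutation p = 0.00216, adjusted p = 0.00433) and 1.44-fold in the EC (exact permutation p = 0.00433, adjusted p = 0.00779). In the EC the groups were separated by very little: the highest wt log2 ratio was 2.56 and the lowest Ts66Yah log2 ratio 2.57, in replicate 5. The EC call was lost when medians were compared in place of means (exact permutation, adjusted p = 0.108). Synj1/Itsn1, the ratio within the triplicated pair, was 3.33 in wt HIP and 3.82 in Ts66Yah HIP, a 1.15-fold difference with overlapping groups (exact permutation p = 0.013, adjusted p = 0.0213), and in the EC the ratio was 3.99 and 4.45 (exact permutation p = 0.0996, adjusted p = 0.128).

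Among pairs outside the segment, Dnm1/Dnm3 fell in the HIP from 9.86 to 8.47, a fold of 0.858 with overlapping groups (exact permutation p = 0.0173, adjusted p = 0.026), and in the EC it had a fold of 0.851 (exact permutation p = 0.0671, adjusted p = 0.0929). The HIP call was lost when any of 6 mice was left out in turn, and when medians were compared. Amph/Bin1 differed between genotypes by 0.02 and 0.05 on the log2 scale and Snap91/Picalm by 0.0004 and 0.02, with exact permutation p-values of at least 0.608.

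**Figure D3:**
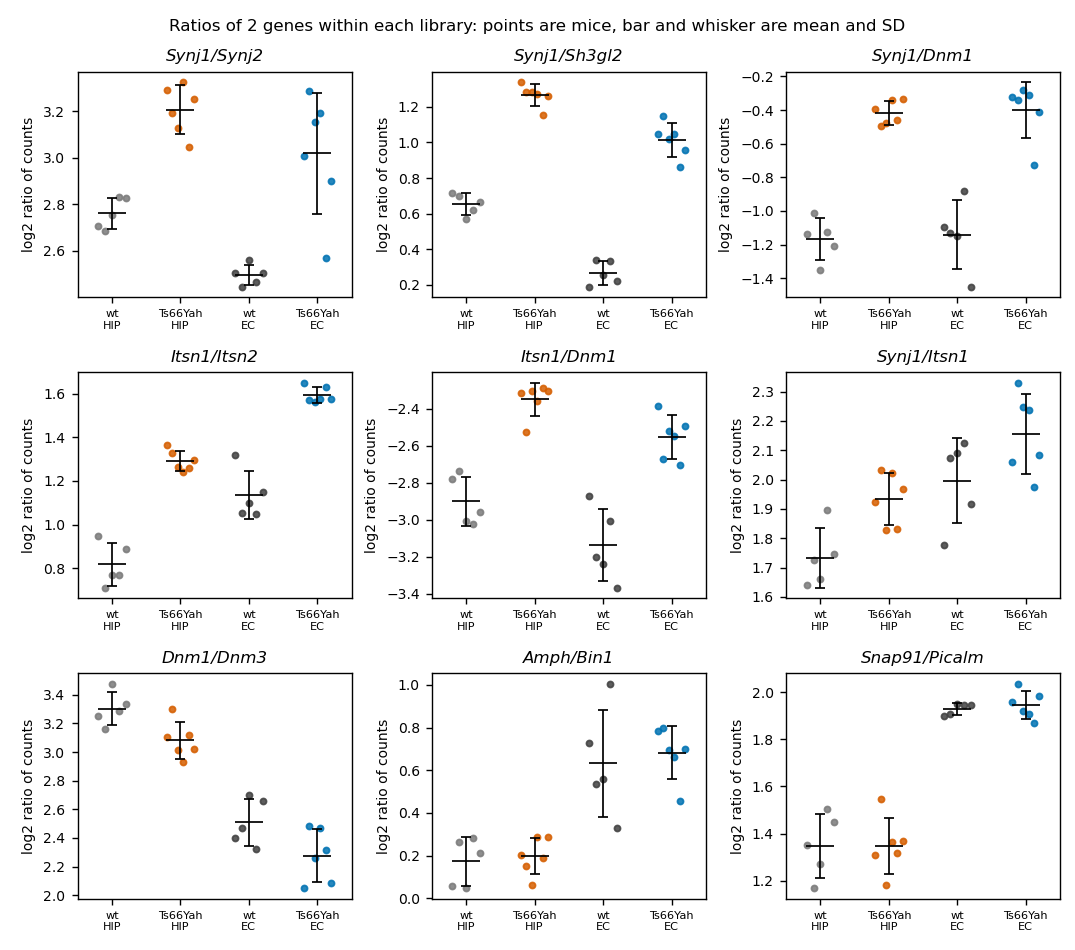
Log2 ratio of the counts of 2 genes within each library (vertical axes, which do not start at 0 because the values are logarithms) for the 9 pairs in the 4 groups, with 1 point per mouse and mean with SD. The 5 pairs of a triplicated gene with a partner outside the segment show separate genotypes in each region (Itsn1/Itsn2 in the HIP: at most 0.95 against at least 1.24), and Snap91/Picalm shows the regions apart and the genotypes mixed.

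Between HIP and EC, 7 of the 10 members differed. Each mouse gave both regions, so they were compared within mice, separately in wt and in Ts66Yah animals. In the EC 3 members were higher, 4 were lower, and Synj1, Dnm1 and Amph were not called. Of all tested genes 26.3% were called higher and 27% lower in the EC of wt mice, and 28.9% and 30.1% in that of Ts66Yah mice. The 7 members called in wt mice were called with the same sign in Ts66Yah mice, 70% of the members beside 48.0% of the 17636 genes tested in both.

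Dnm3 showed the widest regional difference. It was higher in the EC of all 5 wt mice, by 1.59-fold to 1.89-fold, and of all 6 Ts66Yah mice, by 1.49-fold to 2.03-fold. The fitted folds were 1.76 (interval 1.62 to 1.91) and 1.80 (1.65 to 1.97), with adjusted p = 7.53e-07 and 7.17e-07 in edgeR. Dnm1, by contrast, had folds of 1.02 (0.928 to 1.11) and 1.03 (0.968 to 1.10) and was higher in the EC of 2 of 5 wt and 4 of 6 Ts66Yah mice. Up to 1.25% of the Dnm3 sequence is shared with an opposite-strand transcript, Gm10176, and 0% of Dnm1.

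Sh3gl2 was 1.35-fold higher in the EC of wt mice (interval 1.23 to 1.49) and 1.24-fold higher in that of Ts66Yah mice (1.15 to 1.34). Snap91 was 1.26-fold higher in both (1.16 to 1.36 and 1.19 to 1.34). Both genes are largely neuronal, and all 11 mice had more of each in the EC. The sum of the 5 neuronal markers was 2475 to 2697 CPM in wt HIP and 2978 to 3570 CPM in wt EC, a sum led by Map2. Of the 5, 3 were called higher in the EC and 1 was called lower in each genotype, and Nefl had means of 423.8 CPM in wt HIP and 339.7 CPM in wt EC. The part of these markers in the higher Sh3gl2 and Snap91 was not tested.

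Itsn2, Bin1, Picalm and Itsn1 fell in the EC. Itsn2 stood at 0.693-fold in wt and 0.725-fold in Ts66Yah mice and Bin1 at 0.77-fold and 0.747-fold. Picalm stood at 0.839-fold and 0.835-fold, and Itsn1 at 0.863-fold and 0.894-fold. All 4 were lower in the EC of each of the 11 mice (edgeR, largest adjusted p = 0.0108, for Itsn1 in wt mice). Itsn1 had overlapping groups all the same, with 155.9 to 179.9 CPM in wt HIP and 123.4 to 164.7 CPM in wt EC. Up to 4.93% of the Bin1 sequence is shared with an opposite-strand transcript, A830052D11Rik. Bin1 groups overlapped in wt mice by 1 EC library, replicate 5 at 256.9 CPM, beside a lowest HIP value of 253.0 CPM. The 6 oligodendrocyte markers summed to 7237 to 10532 CPM in wt HIP and 1411 to 3503 CPM in wt EC, with 0 markers at 0, and 7379 to 9653 against 1653 to 2915 CPM in Ts66Yah mice. Their part in the lower Bin1, Itsn2 and Picalm of the EC was not tested.

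Synj1 had a regional fold of 1.04 in wt mice (interval 0.93 to 1.15) and 1.04 in Ts66Yah mice (0.96 to 1.13), and was higher in the EC of 4 of 5 and 4 of 6 mice. Amph had folds of 1.06 (0.979 to 1.15) and 1.05 (0.987 to 1.11), and neither passed the test, although each of the 11 mice had a higher value in the EC (edgeR, adjusted p = 0.198 and 0.163).

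**Figure D4:**
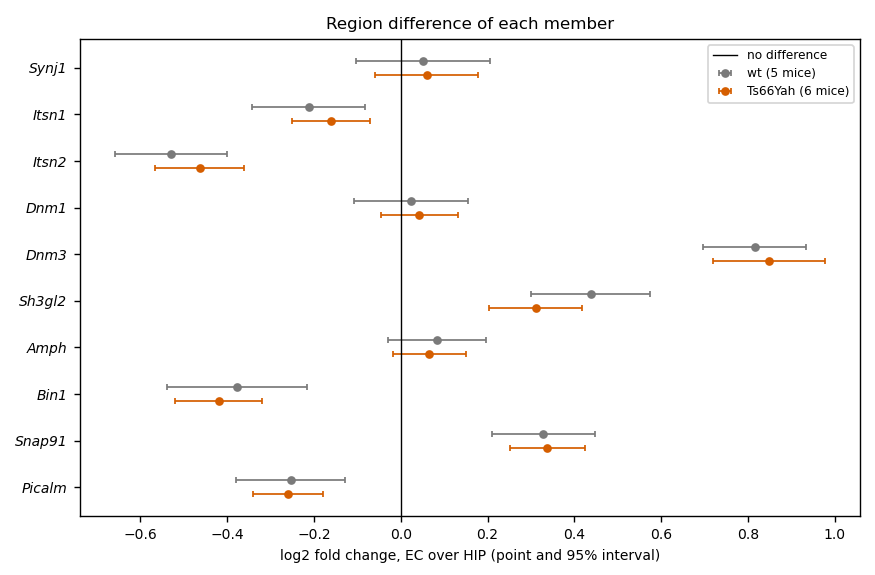
Log2 fold change of EC over HIP (horizontal axis) with its 95% interval for each member in 5 wt mice (grey) and 6 Ts66Yah mice (orange). Dnm3, Sh3gl2 and Snap91 lie to the right of 0, Itsn1, Itsn2, Bin1 and Picalm to the left, and the intervals of Synj1, Dnm1 and Amph cross 0 in both genotypes.

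The ratios within paralog pairs can be set side by side for the 2 regions. Snap91/Picalm had a geometric mean of 2.55 in wt HIP and 3.81 in wt EC, and 2.55 and 3.85 in Ts66Yah mice. Amph/Bin1 went from 1.13 to 1.55 in wt and from 1.15 to 1.60 in Ts66Yah mice, and Dnm1/Dnm3 from 9.86 to 5.70 and from 8.47 to 4.85. Itsn1/Itsn2 went from 1.76 to 2.20 and from 2.45 to 3.02. The difference between regions was not tested for these ratios.

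Whether the genotype difference itself differed between regions was tested in 1 fit over the 22 libraries. This fit had no term for the animal, so its p-values and intervals treat both libraries of a mouse as independent. Of the 10 members 0 were called in edgeR, and 0 had an unadjusted p under 0.05. Over all 19074 genes 0% were called, with 388 at an unadjusted p under 0.05 in edgeR. DESeq2, also without a term for the animal, called 0, with 378 at an unadjusted p under 0.05. With the animal as a replicate block, limma called 0, with 728. For Synj1 the EC fold was 1.01 times the HIP fold, with an interval of 0.865 to 1.18, and for Itsn1 it was 1.04 times, with an interval of 0.916 to 1.18. The widest difference of a member was that of Sh3gl2, 0.918 times with an interval of 0.811 to 1.04.

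Levels of different genes can be compared only per length. Per kilobase of the merged exons, Dnm1 stood at 234.4 ± 15.2 CPM (SD, n = 5) in wt HIP. Amph, Bin1 and Synj1 followed at 69.6 ± 3.58, 67.9 ± 4.56 and 67.7 ± 3.66 CPM per kilobase, with overlapping mice, and then Sh3gl2 at 53.1 ± 2.79 and Snap91 at 45.1 ± 2.58. Picalm at 10.3 ± 0.515, Itsn1 at 7.03 ± 0.396, Itsn2 at 6.88 ± 0.292 and Dnm3 at 5.10 ± 0.265 formed the lower end, where Itsn1 and Itsn2 overlapped. In Ts66Yah HIP Synj1 stood second at 109.0 ± 7.23 CPM per kilobase (SD, n = 6), above every Amph value, and Itsn1 at 9.84 ± 0.432 overlapped Picalm at 10.5 ± 0.37.

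In wt EC Dnm1 was again the highest at 237.5 ± 9.38 CPM per kilobase, and Amph, Sh3gl2, Synj1, Snap91 and Bin1 formed a chain from 73.6 to 52.5 in which each overlapped the next. Dnm3 came above Picalm there, at 8.97 ± 0.711 against 8.603 ± 0.54 CPM per kilobase with overlap, and Itsn2 was the lowest at 4.77 ± 0.417. The order depends on the length used. With the longest transcript in place of the merged exons, which shortens Dnm3 from 24.5 to 7.52 kilobases and Itsn1 from 23.4 to 14.01 kilobases, Itsn1 was the lowest member in wt HIP at 11.7 CPM per kilobase and Sh3gl2 the second highest at 107.6.

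Libraries that were high in Synj1 within their group also tended to be high in Sh3gl2 and Snap91. On deviations of log2 CPM from the 4 group means, over 22 libraries of 11 mice, Synj1 had Pearson r = 0.84 with Sh3gl2, 0.74 with Snap91, 0.66 with Itsn2 and 0.51 with Itsn1, and r = -0.74 with Bin1. Without the 2 EC libraries labelled replicate 5 the values were 0.64, 0.72, 0.04, 0.01 and -0.40, so the relation with Itsn2 and Itsn1 rests on those libraries. The sum of the neuronal markers, in which Map2 weighs most, had r = 0.77 with Synj1, and 0.77 without those libraries.

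The genes of mean 10 CPM or more whose level was most like that of Synj1 over the 22 libraries were Dyrk1a, Ltn1 and Tmem50b (Pearson r = 0.98, 0.96 and 0.96 among 9905 genes). For Itsn1 they were Bach1, Brwd1 and Dop1b (r = 0.95, 0.95 and 0.95). All 6 lie on the triplicated segment and so share the step between genotypes. On deviations from the group means the genes most like Synj1 were Ttc39b, Wdr7 and Map2k4 (r = 0.94, 0.93 and 0.93), and those most like Itsn1 were Prrc2c, Ash1l and Pclo (r = 0.91, 0.89 and 0.89), none of them on the segment. These values were not recomputed without the EC libraries labelled replicate 5, on which some of the relations above rest. Pclo encodes piccolo, a scaffold of the presynaptic active zone.

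Around the 10 members, 71 further genes of the pathway were sorted into 5 lists. All 71 were tested, and 4 were called between genotypes in HIP and 2 in EC, beside 109 of 18452 and 50 of 17658 genes in all. Of genes outside the segment, 23 were called higher and 28 lower of 18351 in HIP, and 3 and 2 of 17565 in EC. Dyrk1a and Rcan1, called in both regions, lie on the triplicated segment and belong to the list of calcium and kinase control. Dyrk1a, a kinase that phosphorylates dynamin, amphiphysin and synaptojanin, rose 1.46-fold in HIP and 1.53-fold in EC. Rcan1, an inhibitor of the phosphatase calcineurin that switches these proteins on, rose 1.55-fold and 1.46-fold. The other 7 genes of that list, among them the calcineurin subunits Ppp3ca, Ppp3cb and Ppp3r1, were not called, and the median over the list was 0.01 on the log2 scale in both regions.

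Of 17 genes for the coat and adaptors, 1 fell in the HIP and 0 rose. Fcho1, which starts clathrin-coated pits, had 55.6, 48.8, 81.4, 59.8 and 62.9 CPM in wt HIP and ran from 36.8 through 39.1 to 53.1 CPM in Ts66Yah HIP. The groups overlapped through wt replicate 2 and the highest Ts66Yah mouse. The Fcho1 fold was 0.667 (interval 0.557 to 0.798, edgeR adjusted p = 0.0478). The call was lost when any of 9 mice was left out in turn, wt replicate 1 among them (edgeR, adjusted p = 0.0707). It was also lost with limma voom (adjusted p = 0.0534) and with a replicate block (edgeR, adjusted p = 0.184). With the mice blocked by ranges of their numbers, a fit without wt replicate 1, which is in neither range, Fcho1 was not called either (edgeR, adjusted p = 0.114). Its EC fold was 0.996 (0.843 to 1.18), and the difference between regions was not called (edgeR, adjusted p = 1). None of the 17 was called in the EC (edgeR, 0 at an unadjusted p under 0.05), where Cltc, the clathrin heavy chain and the gene of highest CPM in the list, had a fold of 1.08. The list median was -0.01 in HIP and 0.03 in EC on the log2 scale.

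Of 14 genes for phosphoinositides and uncoating, 1 rose in the HIP, Synj2. It spans chromosome 17 from 5941280 to 6044290, in the centromeric part of Mmu17 that was removed from the minichromosome. By other methods, the paper names Synj2 among genes changed in Ts65Dn and not in Ts66Yah. The fold that the paper lists for Synj2 in the Ts66Yah HIP is 1.18, the same as the fold below, so the calls differ and the folds do not. The paper also describes this interval as rearranged in several mouse lines, though largely conserved in layout. Synj2 is not among the loci that its text names as affected. Synj2 had 85.9, 83.9, 74.3, 81.7 and 78.0 CPM in wt HIP and ran from 89.4 through 96.1 to 100.2 CPM in Ts66Yah HIP. These groups did not overlap, but the share of all tested genes without overlap was not counted. The Synj2 fold was 1.18 (interval 1.10 to 1.27, edgeR adjusted p = 0.035), and the call was lost when any of 8 mice was left out in turn, with a replicate block (adjusted p = 0.15) and in a joint fit of the 22 libraries (0.203). Up to 3.005% of the Synj2 sequence is shared with genes of the opposite strand, mainly Serac1. Among EC libraries the Synj2 fold was 1.13 (0.993 to 1.28, edgeR adjusted p = 0.822). Dnajc6, the auxilin of nerve terminals and the gene of highest mean CPM in the list, had folds of 1.03 and 1.05 and was not called.

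Hspa8, the chaperone that auxilin brings to the coat, had the largest fold of that list, and was chosen after its values were seen. In the HIP the wt mice had 348.1, 327.0, 227.7, 376.3 and 229.8 CPM, and the Ts66Yah mice ran from 371.4 through 469.7 to 541.0 CPM. In the EC the wt mice had 375.0, 427.1, 283.9, 520.2 and 309.1 CPM, and the Ts66Yah mice ran from 484.1 through 574.9 to 768.6 CPM. Only wt replicate 4 reached into the Ts66Yah range in each region. The Hspa8 fold was 1.54 in the HIP (interval 1.25 to 1.90) and 1.56 in the EC (1.23 to 1.98) and passed no adjusted threshold (edgeR, adjusted p = 0.0722 and 0.222).

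Over all genes, 2188 of 18452 in HIP and 1103 of 17658 in EC had an unadjusted p under 0.05 between genotypes in edgeR. The 14 genes for scission and curvature and the 17 for vesicle cargo and fusion held 0 calls between genotypes (edgeR, 3 of each list at an unadjusted p under 0.05 in HIP and 2 of each in EC). Their genes of highest CPM, Pacsin1 and Snap25, had folds of 0.958 and 1.01 in HIP and 0.919 and 0.988 in EC. Pacsin1 encodes syndapin 1, which binds dynamin, and Snap25 a fusion protein of the SNARE complex.

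Between regions, 9562 of 17935 tested genes were called in wt mice and 10647 of 18043 in Ts66Yah mice, which is the background for the list counts. Of the 17 genes for vesicle cargo and fusion 15 were higher in the EC of wt mice and 17 in that of Ts66Yah mice, with list medians of 0.44 and 0.45 on the log2 scale beside 0.01 and 0.00 over all genes. Stx1a, the plasma membrane SNARE syntaxin 1A, was 4.598-fold and 3.93-fold higher in the EC, with 87.9 to 107.4 CPM in wt HIP and 401.5 to 504.1 CPM in wt EC. Vamp2, the vesicle SNARE synaptobrevin 2, was 1.41-fold and 1.35-fold higher, and Syngr1, the vesicle protein synaptogyrin 1, was 1.40-fold and 1.46-fold higher.

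The coat list had 8 genes higher and 5 lower in the EC of wt mice, and 10 and 6 in that of Ts66Yah mice. Ap2m1, the cargo-binding subunit of the adaptor AP2, was 1.46-fold and 1.41-fold higher in the EC, and Ston2, the adaptor stonin 2 for synaptotagmin, was 1.85-fold and 1.65-fold lower. Epn2, the adaptor epsin 2, was 1.36-fold and 1.35-fold lower, and Ap2s1, the small subunit of AP2, was 1.31-fold and 1.41-fold higher. The scission list was split with 5 higher and 6 lower in wt and 5 and 7 in Ts66Yah mice. The F-BAR genes Fnbp1l and Fnbp1 of that list moved in opposite directions: Fnbp1l was 2.76-fold and 2.71-fold higher in the EC, and Fnbp1 was 2.41-fold and 2.23-fold lower.

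Dnm2, the dynamin of all tissues, fell by 0.59 and 0.52 on the log2 scale in the EC, opposite in sign to Dnm3. The list of phosphoinositides and uncoating had 5 higher and 5 lower in both genotypes. Pip5k1b, a kinase that makes PI(4,5)P2, was 2.33-fold and 2.52-fold lower in the EC. The inositol phosphatases Inpp5f and Inpp5b stood at 0.669-fold and 0.666-fold and at 0.77-fold and 0.796-fold, and Dnajc6 was 1.28-fold and 1.29-fold higher. In the list of calcium and kinase control, 5 genes were higher and 1 was lower in both genotypes. Cdk5r1, the p35 activator of the kinase CDK5, was 1.53-fold and 1.54-fold higher in the EC, and Ppp3ca, a catalytic subunit of calcineurin, was 1.59-fold and 1.67-fold lower. The calcineurin regulators Rcan1 and Rcan2 were higher in the EC, Rcan1 by 1.30-fold and 1.22-fold and Rcan2 by 1.45-fold and 1.63-fold.

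**Figure D5:**
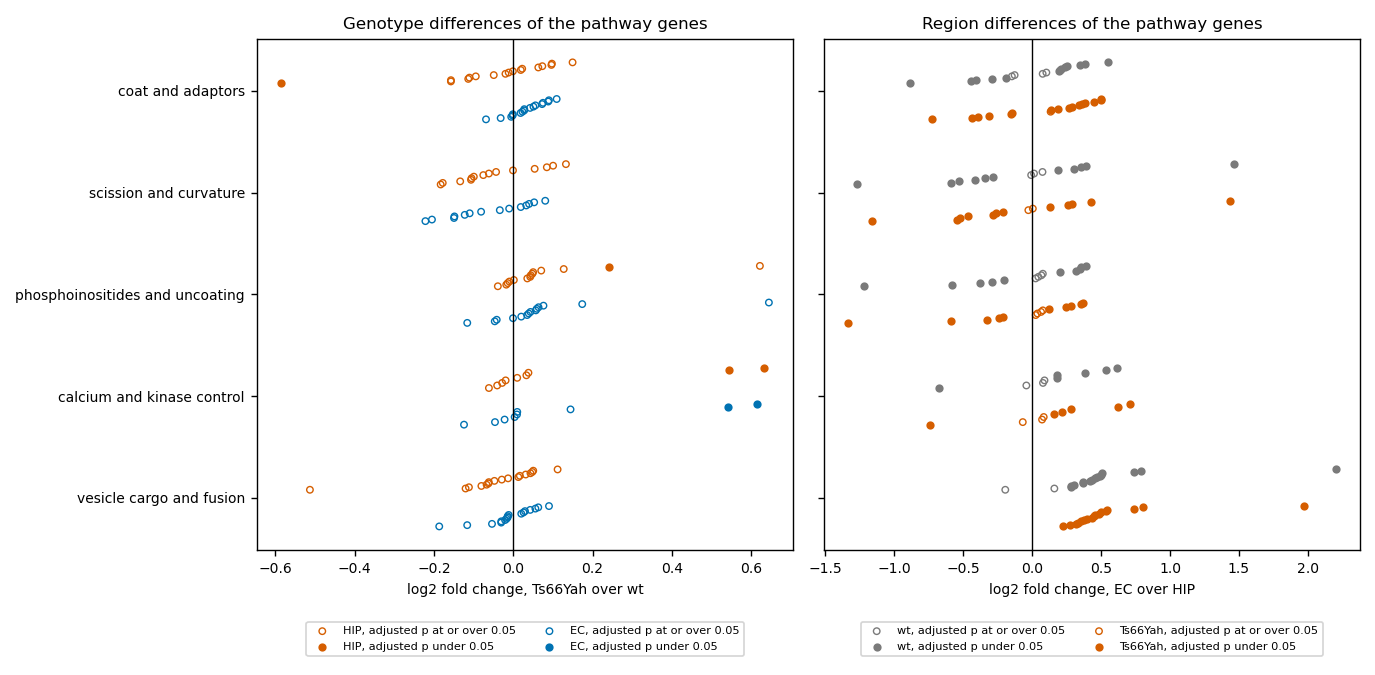
Log2 fold changes of the 71 pathway genes in 5 lists (rows), between genotypes on the left (HIP orange, EC blue) and between regions on the right (wt grey, Ts66Yah orange), with filled points for an adjusted p under 0.05. On the left 4 HIP points and 2 EC points are filled, and on the right the vesicle cargo and fusion genes lie to the right of 0, except 1 open wt point, with 15 and 17 filled points.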

How the data were processed

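RNA was prepared from the HIP and EC of 11 mice. Per the labels libraries were poly(A)-selected with a stranded kit, whereas the study's methods also name a ribosomal depletion kit; reads were single-end, 50 bases, aligned with Hisat2 to GRCm38 and counted with HTSeq-count on Ensembl gene identifiers, with strand setting not given in the sources used here. The authors deposited these raw counts, in which 0 columns were unmapped; their tables of DESeq2 and FCROS comparisons (fold changes, p-values) were not used. Genes, lengths and neighbours came from GENCODE M21 on GRCm38, an earlier annotation that matched 55144 of 55385 identifiers. Counts were fitted with edgeR 4.0.16 (TMM factors, filterByExpr, quasi-likelihood test) over all genes within each region, or within each genotype with the animal as a block, and p-values were adjusted by Benjamini-Hochberg with a threshold of 0.05. For the departure from 1.5-fold, the log of 1.5 was added to the offsets of Ts66Yah libraries for segment genes. Log2 CPM used a prior count of 2. Alternatives used DESeq2 1.42.0 and limma 3.58.1. The fits were tested on simulated data. The regions were paired by the animal number in the labels; the HIP and EC deviations of the same mouse correlated at 0.237 to 0.68. Mice were separate animals, so p-values between genotypes within a region measure the spread between mice. Those between regions measure the spread of the difference within mice. The genotype by region fit took all 22 libraries with no term for the animal, so its p-values and intervals treat both libraries of a mouse as independent.

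Members, gene lists, ratios and tests were chosen with earlier results of these data known. In each list and comparison the genes to be named were up to 3 past the threshold with the smallest p, otherwise the gene of highest mean CPM, not divided by length. For the neighbours, the 2 nearest tested protein-coding genes on each side were taken. The values of 1 gene that this rule would name are not reported here.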

Additional observations from a re-analysis of the deposited data

Results flagged for a closer look

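In 76 groups of 5 or 6 values (10 members and 9 ratios in 4 groups), 4 values lay far from the rest of their group, about as many as the 1 in 20 that chance flags. The groups are not independent, since the ratios reuse the member values, so this rate is only a rough guide. Synj1 in the EC of Ts66Yah replicate 5 stood at 736.7 CPM, with the other 5 mice at 934.5 to 998.5 CPM, and the Synj1/Dnm1 log2 ratio of the same library was -0.73, below the rest of its group. The EC of wt replicate 5 was also the lowest of its group in Synj1. Dnm1 in the HIP of wt replicate 2 stood at 1091 CPM, with the other 4 wt mice at 1235 to 1281 CPM. The Itsn1/Dnm1 log2 ratio in the HIP of Ts66Yah replicate 2 was -2.53, the lowest of its group.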

How the results depend on the processing

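The counts of members called (2 in the HIP, 2 in the EC, 7 between regions in each genotype, 0 in the genotype by region test and 0 departing from 1.5-fold) came out the same under the alternatives run for each. All were run with another scaling, with and without a block, and with each mouse left out. DESeq2 was run for all but the departures, limma voom and no filter for the genotype and region counts, and a stricter filter and a joint fit for the genotype counts. Counts over all genes moved more: from 109 to 357 with DESeq2 and 61 with a replicate block in the HIP, and from 50 to 107 with DESeq2 and 79 in a joint fit in the EC. Replicate numbers are shared by the genotypes, and the main fits did not pair mice by them. Deviations of same-numbered mice correlated at -0.11 to 0.11 in the HIP and -0.04 to 0.38 in the EC. The 0.38 was replicate 5, whose EC libraries stood apart in both genotypes, and the other EC values were at most 0.08. What the replicate 5 libraries share was not tested. Under this replicate block 0 of 18 ratios were called, where the smallest possible p was 0.0625. Leaving out 1 mouse called 11 to 12 ratios. Comparing medians called 10. The Dnm1 level per kilobase was 46.1 times that of Dnm3 in wt HIP, 44.6 to 47.2 times with a mouse left out, and 16.2 times with the longest transcript.

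Differences that changed sign were all small and uncalled. On the log2 scale, Itsn2 in the HIP stood at -0.00411 with the replicate block. Snap25 in the EC stood at 0.0231 when the mice were blocked by their animal numbers in ranges, a fit without wt replicate 1. Picalm in the genotype by region test stood at 0.000878 with the animal as a replicate block. The Snap91/Picalm ratio in the HIP stood at -0.00333 with the replicate block. As differences of medians, Amph/Bin1 in the HIP was -0.0155 and Snap91/Picalm -0.00772 in the HIP and -0.00816 in the EC. With a mouse left out, the ranges were -0.00564 to 0.0375 for Itsn2 and -0.0105 to 0.034 for Snap25 in the HIP. They were -0.00152 to 0.0702 for Picalm and -0.0682 to 0.0305 for Snap25 in the EC, and -0.0227 to 0.0557 for Dnm1 between regions in wt mice. In the genotype by region test they were -0.0524 to 0.0582 for Synj1, -6.34e-05 to 0.0786 for Dnm1, -0.0288 to 0.0117 for Amph, -0.0883 to 0.0326 for Bin1, -0.0217 to 0.0401 for Snap91 and -0.0324 to 0.0448 for Picalm. For ratios they were -0.00673 to 0.0526 and -0.0243 to 0.144 for Amph/Bin1 and -0.0448 to 0.0391 and -0.00203 to 0.0312 for Snap91/Picalm, in HIP and EC. The cause of these changes was not tested.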
